A study of Mus musculus with 15 samples.

Results

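The secreted ligands of the transforming growth factor beta (TGF-beta) superfamily and the proteins that bind and block them were followed in white adipocytes kept at a cool temperature. The group consists of 10 genes chosen by name, out of 18804 in the count table, and all 10 were found and passed the filter on low counts. They are the TGF-beta ligands Tgfb1, Tgfb2 and Tgfb3, the bone morphogenetic protein (BMP) ligands Bmp2, Bmp4 and Bmp6, the activin subunit gene Inhba, and the antagonists Fst, Grem1 and Nog.

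RNA was sequenced from adipocytes that were differentiated in culture from mesenchymal precursors of the ears of C57BL/6J mice. All cells received the same inducers (methylisobutylxanthine, dexamethasone, insulin and troglitazone) and were harvested on day 16 of differentiation, with 5 libraries per group. Cells of the day 0 group stayed at 37°C, those of the day 1 group spent only the last day, from day 15, at 31°C, and those of the day 12 group were cooled to 31°C from day 4 on. The sources used here give neither the age of the mice nor whether libraries of 1 group stem from different mice or dishes, so each SD and p-value measures the spread between libraries, which may be technical. Since the day 12 cells were moved while they were still differentiating, the time at 31°C and the stage at which it began cannot be told apart.

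TGF-beta ligands are secreted in a latent form and, once released, bind type II and type I receptor kinases that phosphorylate SMAD2 and SMAD3. BMPs signal in the same manner through SMAD1, SMAD5 and SMAD9, while activin A, the dimer of the Inhba product, shares the SMAD branch of TGF-beta. In fat tissue TGF-beta and activin A are known to hold precursors back from adipogenesis, and BMP2 and BMP4 are known to commit mesenchymal precursors to the adipocyte lineage. Follistatin (Fst) binds activins, and gremlin 1 (Grem1) and noggin (Nog) bind BMPs.

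Total counts ranged from 64648178 to 133270973 per library. Adipocyte identity was checked first, and 9 of 10 adipocyte markers exceeded 1 CPM on average (CPM is the count relative to library size scaled by TMM), among them Lpl (1953, 2344 and 2113 CPM at days 0, 1 and 12). Single markers went different ways, with Adipoq at 1095, 1126 and 464 CPM, Fabp4 at 828, 1399 and 1617 CPM, and Cidec at 177, 28.9 and 59.0 CPM, and of the 10 markers 2 were called higher and 5 lower at day 12 against day 0. Their sum was 4224 to 4839 CPM at day 0, 5179 to 5746 at day 1 and 4451 to 5001 at day 12. Stromal and cartilage markers were present too. The summed level of 7 stromal progenitor markers was 1340 to 1397 CPM at day 0, 1399 to 1476 at day 1 and 1132 to 1165 at day 12, with Pdgfra at 562, 661 and 712 CPM, Ly6a at 591, 534 and 221 CPM, Dlk1 at 38.3, 41.7 and 20.4 CPM, and Dpp4 and Pi16 near 0. That of 6 chondrocyte markers was 3681 to 4416, 3925 to 4081 and 1153 to 1250 CPM, most of it Comp, while Col2a1 was at 149, 155 and 182 CPM and Matn1 at no more than 2 counts in any library. Of 5 myofibroblast markers the sum was 2259 to 2932, 2062 to 2293 and 1710 to 1873 CPM, most of it Postn. Acta2 (285, 414 and 356 CPM) and Tagln (104, 125 and 121 CPM) were higher at days 1 and 12 than at day 0. Cnn1 (10.5, 10.5 and 2.5 CPM) and Myh11 (1.3, 1.2 and 0.39 CPM) were lower at day 12. Of 5 osteoblast markers the sum was 243 to 298, 272 to 318 and 214 to 260 CPM. Of 8 epithelial and mesothelial markers the sum was 9.44 to 11.2, 12.4 to 14.7 and 29.2 to 43.5 CPM, with Msln at 0.628, 0.870 and 29.3 CPM and Krt8 at 8.44, 11.8 and 5.71 CPM, and Upk3b, Wt1, Krt5, Krt14 and Epcam were near 0. Macrophage markers summed to 7.47 to 14.1 CPM over all libraries with Ptprc at no more than 7 counts, endothelial markers to 0.907 to 1.77 CPM and skeletal muscle markers to 0.803 to 1.73 CPM. The part of these marker shifts in the results below was not tested, and in bulk RNA fewer cells of a type and less RNA per cell cannot be told apart.

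Which ligands and antagonists respond to 31°C was asked by comparing each exposure with 37°C, and the exposures with each other. A gene was called where the adjusted p was below 0.05 and the fold change above 1.5, by the quasi-likelihood test of edgeR over all 14293 genes tested. At day 1 against day 0, Tgfb2 rose, Inhba, Bmp6 and Nog fell, and the other 6 members were not called. At day 12 against day 0, Grem1 rose and the same genes, Inhba, Bmp6 and Nog, fell. Thus 4 of 10 members (40%) were called at day 1, against 21.1% of all genes tested, and 4 of 10 at day 12, against 29.2%. In the direct comparison of day 12 with day 1, 3 of 10 members were called, all lower (Tgfb2, Bmp6 and Nog), against 19.1% of all genes. Called higher were 1 member at day 1 (7.71% of all genes) and 1 at day 12 (13% of all genes), and called lower were 3 members at day 1 (13.4%), 3 at day 12 (16.2%) and 3 at day 12 against day 1 (8.53%). By adjusted p alone, 8 members passed at day 1 (71.5% of all genes), 6 at day 12 (76.6%) and 8 at day 12 against day 1 (67.2%). The groups did not overlap for 8 members at day 1 (57.4% of all genes), 6 at day 12 (64.6%) and 5 at day 12 against day 1 (52.5%). The comparisons with day 0 share the day 0 libraries. The median log2 fold change of the members was -0.10 at day 1 and -0.19 at day 12, beside -0.0088 and 0.01 for all genes.

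**Figure D1:**
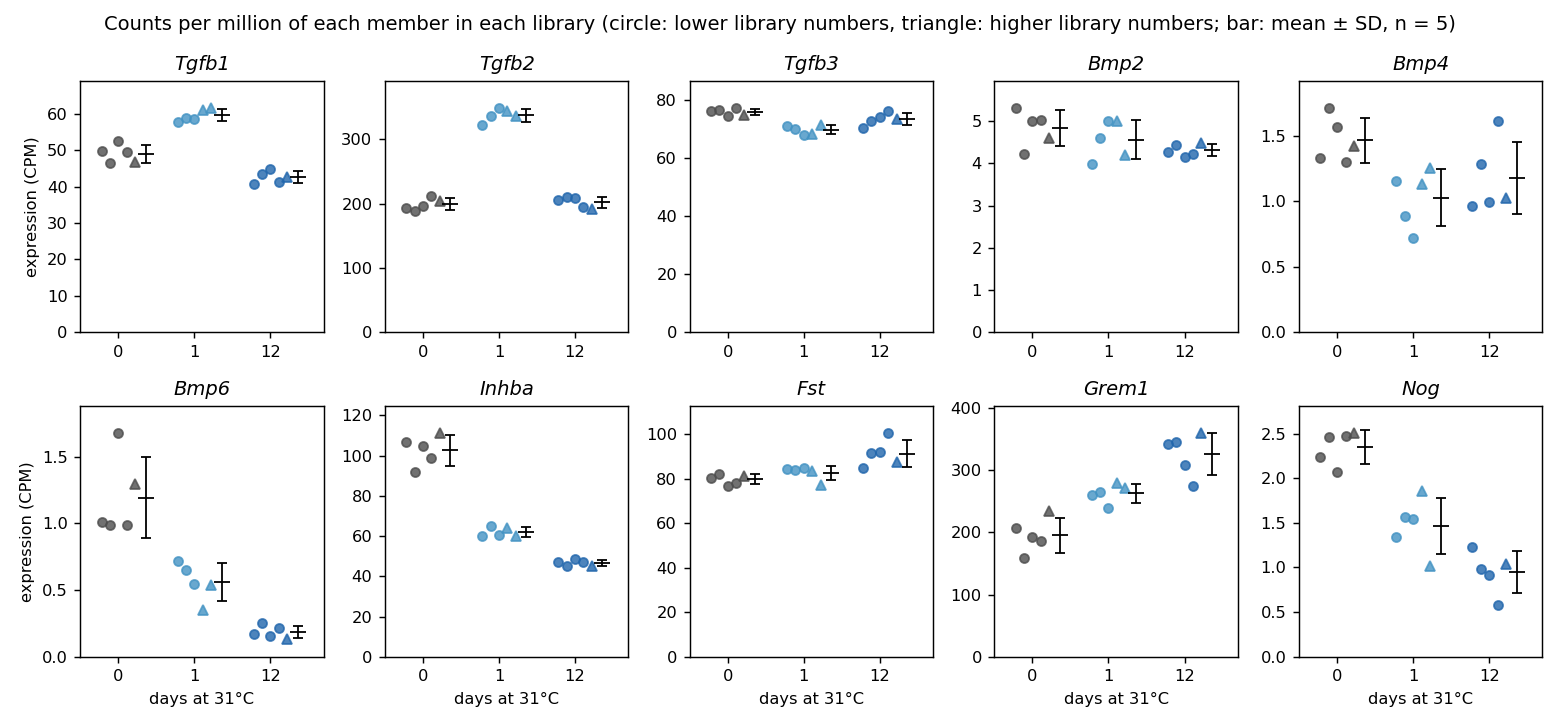
Expression (CPM, linear axis from 0) of each of the 10 genes in each of the 15 libraries, against days at 31°C; circles are the 11 libraries with the lower library numbers, triangles the 4 with the higher ones, and bars give the mean ± SD (n = 5). Tgfb2 is high in the day 1 libraries alone (322 to 349 CPM), Inhba steps down from 103 to 62.0 and 46.7 CPM on average, and Grem1 steps up from 195 to 262 and 326 CPM.

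Tgfb2 was the most abundant TGF-beta ligand gene and was high in the day 1 group alone. The day 12 cells were not sampled earlier, so a rise and return within them was not tested. TGF-beta 2 is a ligand that needs the co-receptor betaglycan for strong binding to the type II receptor. Its expression was 194, 188, 197, 212 and 204 CPM in the 5 day 0 libraries, 322, 336, 349, 344 and 336 CPM at day 1, and 205, 210, 208, 194 and 192 CPM at day 12. Every day 1 library lay above all others, and the day 0 and day 12 libraries overlapped. The log2 fold change was 0.76 ± 0.03 (SE) at day 1 (adjusted p 8.63e-16), which is 1.70-fold. At day 12 it was 0.02 (95% interval -0.05 to 0.09, adjusted p 0.554), and 0.22 when libraries were scaled by total counts alone (adjusted p 2.00e-06). Day 12 was lower than day 1 by a log2 fold change of -0.74 ± 0.03 (adjusted p 1.73e-15), a call that was lost under total counts (-0.57). Tgfb2 lies on chromosome 1 from 186622792 to 186705989 (GRCm38, minus strand), and 2.14% of its exon bases are shared with Gm29491 on the opposite strand.

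Of the members that have an entry in the RefSeq promoter table (GRCm38.p6), those with the clearest changes are Tgfb2, Inhba, Bmp6 and Grem1. Against day 0, Tgfb2 was called higher at day 1 alone and Inhba lower at both exposures. Bmp6, of low counts, fell most, and Grem1 was higher at both exposures but called at day 12 alone. The 250 bases before each annotated start are shown so that they can be read side by side. Each is written from 5′ to 3′ on the strand of the gene, and capitals mark matches on either strand to the searched motifs: the SMAD core CAGAC, the BMP SMAD element GGCGCC, the cAMP response element TGACGTCA, the AP-1 site TGANTCA, the hypoxia response core ACGTG, the TATA box TATAAA, the CCAAT box CCAAT and the GC box GGGCGG.
Tgfb2, chr1:186705990-186706239, strand -: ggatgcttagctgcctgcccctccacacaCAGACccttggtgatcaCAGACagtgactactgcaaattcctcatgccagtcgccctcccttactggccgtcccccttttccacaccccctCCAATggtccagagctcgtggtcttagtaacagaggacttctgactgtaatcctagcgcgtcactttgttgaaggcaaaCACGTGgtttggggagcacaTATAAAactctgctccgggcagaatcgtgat
Inhba, chr13:16011601-16011850, strand +: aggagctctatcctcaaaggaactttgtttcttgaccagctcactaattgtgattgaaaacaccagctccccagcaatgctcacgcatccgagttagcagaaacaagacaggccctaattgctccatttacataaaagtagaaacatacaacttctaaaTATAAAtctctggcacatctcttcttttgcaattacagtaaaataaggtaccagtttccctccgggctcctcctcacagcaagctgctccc
Bmp6, chr13:38345466-38345715, strand +: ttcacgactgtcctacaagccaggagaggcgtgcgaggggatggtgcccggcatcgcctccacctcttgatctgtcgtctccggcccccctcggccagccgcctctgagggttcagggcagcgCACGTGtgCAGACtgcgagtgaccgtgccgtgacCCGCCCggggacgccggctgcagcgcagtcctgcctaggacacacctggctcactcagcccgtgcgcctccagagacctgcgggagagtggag
Grem1, chr2:113758649-113758898, strand -: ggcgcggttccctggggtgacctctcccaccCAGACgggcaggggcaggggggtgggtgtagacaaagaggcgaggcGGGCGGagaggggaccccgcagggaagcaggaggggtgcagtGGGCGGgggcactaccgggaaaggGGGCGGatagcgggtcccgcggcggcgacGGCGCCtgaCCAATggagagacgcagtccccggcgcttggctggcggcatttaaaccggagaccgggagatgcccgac

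Each window is described against 32851 promoter windows of the same length. Tgfb2 had 2 SMAD core matches, at 221 and 204 bases before its start, a CCAAT box at 130, a CACGTG that matches the hypoxia response core on both strands, and a TATA box at 31 bases. The Inhba window held a single match, TATAAA at 91 bases before the start, and was 43.2% G and C. Bmp6 had a SMAD core at 119 bases, next to a CACGTG at 127, and a GC box at 93. Grem1 had a SMAD core at 219 bases, 3 GC boxes, a GGCGCC at 78 and a CCAAT box at 69, in a window of 72% G and C. Over all windows the SMAD core was found in 42.2%, GGCGCC in 9.59%, the hypoxia response core in 16.6%, the TATA box in 12.4%, the CCAAT box in 33.8% and the GC box in 32.7%. The cAMP response element (1.55% of windows) and the AP-1 site (6.75%) matched none of the 6 members with an entry. Tgfb1 had 5 GC boxes and 75.2% G and C, and Bmp4 a CACGTG and a GC box, while no window was looked at for Tgfb3, Bmp2, Fst and Nog. A match is a run of letters and not a measured site, and the starts of RefSeq and GENCODE differ by 609 bases for Bmp6, by 2 bases for Grem1 and by 0 for the other 4.

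Tgfb1 and Tgfb3 stayed under the fold change limit in all 3 comparisons. TGF-beta 1 is the isoform best known in fibrosis and immune control. Tgfb1 expression was 46.4 to 52.6 CPM at day 0, 57.9 to 61.7 at day 1 and 40.9 to 44.9 at day 12, so that the 3 groups did not overlap. Its log2 fold change was 0.28 at day 1, -0.20 at day 12 and -0.49 at day 12 against day 1 (adjusted p 1.82e-07, 2.19e-05 and 2.38e-11). Like Tgfb2, Tgfb1 was highest at day 1, though by no more than 1.40-fold. The lower level at day 12 than at day 0 was not seen when libraries were scaled by total counts (-0.0094, adjusted p 0.815). Tgfb3, whose product acts in palate and lung development, was 74.8 to 77.4, 68.0 to 71.4 and 70.6 to 76.4 CPM, with log2 fold changes of -0.12 at day 1 (adjusted p 0.000332), and -0.05 (95% interval -0.10 to 0.0085, adjusted p 0.114) at day 12. The day 12 sign of Tgfb3 turned positive under total counts (0.15) and with the reference genes (0.0083). Of the Tgfb3 exon bases, 12.4% are shared with Gm37804 and Gm48008 on the opposite strand.

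Inhba, which encodes the beta A chain of activin A, fell at both exposures. It was 107, 91.6, 105, 98.6 and 111 CPM at day 0, 60.1, 65.2, 60.6, 63.9 and 60.2 CPM at day 1, and 47.0, 45.2, 48.6, 47.2 and 45.3 CPM at day 12. No library of one group reached the range of another. The log2 fold change was -0.73 ± 0.04 (SE) at day 1 (adjusted p 1.00e-13), and -1.14 ± 0.04 (adjusted p 1.27e-17) at day 12. From day 1 to day 12 the difference of -0.41 (adjusted p 6.42e-09) was under the fold change limit. Inhba lies on chromosome 13 from 16011851 to 16031621 (GRCm38, plus strand), with no exon base shared with another gene.

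Fst, the activin antagonist, stayed under the fold change limit in all 3 comparisons. It was 80.5, 82.2, 76.8, 78.2 and 81.1 CPM at day 0, 84.5, 84.0, 84.8, 83.4 and 77.2 CPM at day 1, and 84.9, 91.5, 91.9, 101 and 87.5 CPM at day 12. Its log2 fold change was 0.05 at day 1 (95% interval -0.03 to 0.13, adjusted p 0.212), and 0.19 (adjusted p 6.05e-05) at day 12, and the day 12 libraries lay above those of day 0. With libraries scaled by the reference genes Hprt, Tbp and Ppia, the day 1 value was -0.04. The ratio of Fst to Inhba, each per length of merged exons and taken within a library so that no scaling of libraries enters, was 1.05, 1.25, 1.02, 1.104 and 1.01 at day 0, 1.96, 1.79, 1.95, 1.82 and 1.79 at day 1, and 2.51, 2.82, 2.63, 2.98 and 2.69 at day 12. Every library at day 1 was above every library at day 0, and every one at day 12 above every one at day 1. With the longest transcript as the length, the ratio of the group means would be 1.70 at day 0 in place of 1.08, which shifts all groups alike. The ratio is a description of these libraries and was not tested.

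**Figure D2:**
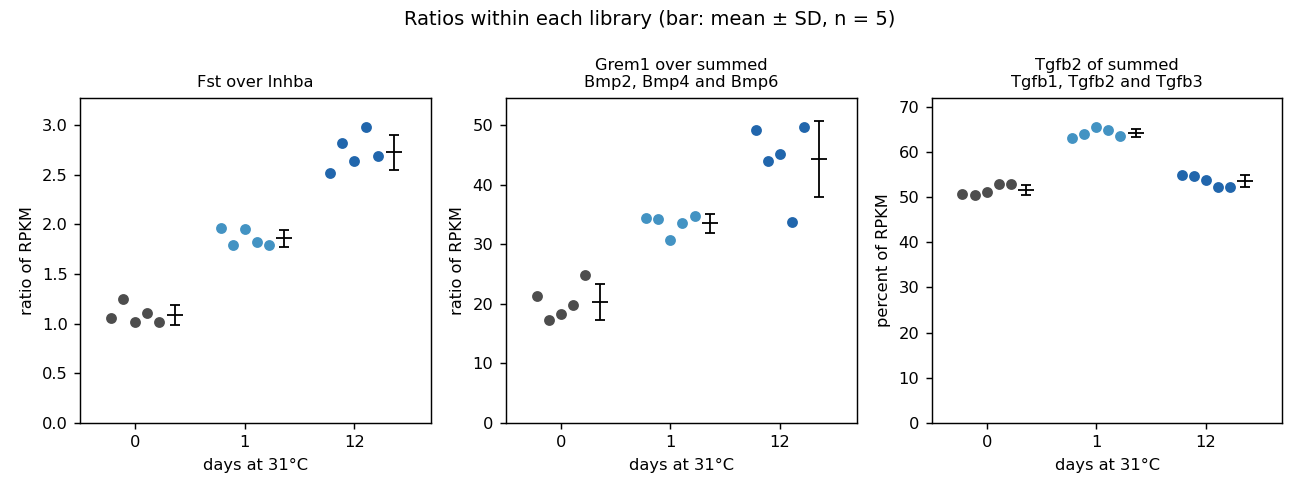
Ratios of levels per length (RPKM) within each library against days at 31°C: Fst over Inhba, Grem1 over the sum of Bmp2, Bmp4 and Bmp6, and the percent of Tgfb2 in the sum of the 3 TGF-beta genes. Points are libraries and bars the mean ± SD (n = 5). Fst over Inhba goes from 1.09 to 1.86 and 2.73 on average, and the Tgfb2 percent is 64.2 at day 1 against 51.6 at day 0 and 53.6 at day 12.

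Among the BMP genes, Bmp6 fell at both exposures while Bmp2 and Bmp4 were not called. Bmp6, the ligand known to set hepcidin in the liver, was 1.01, 0.990, 1.68, 0.990 and 1.299 CPM at day 0, 0.717, 0.653, 0.544, 0.349 and 0.539 CPM at day 1, and 0.170, 0.252, 0.158, 0.214 and 0.134 CPM at day 12. These values rest on 87 to 171, 25 to 56 and 13 to 20 counts, above the 3 counts taken as the floor. The groups did not overlap. The log2 fold change was -1.09 ± 0.22 (SE) at day 1 (adjusted p 0.000122), and -2.69 ± 0.25 (adjusted p 8.86e-10) at day 12, a 6.47-fold lower level at day 12 (95% interval of the ratio of day 12 to day 0, 0.107 to 0.223). Day 12 was also below day 1, with a log2 fold change of -1.603 ± 0.27 (adjusted p 1.23e-05). Bmp6 had the largest decrease of the members in all 3 comparisons. Of its exon bases, 5.74% are shared with Txndc5 on the opposite strand, which was far more abundant (402 to 418 CPM at day 0, 454 to 506 at day 1 and 461 to 472 at day 12). Bmp6 lies on chromosome 13 from 38345107 to 38500302 (GRCm38, plus strand).

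Bmp2 was 4.23 to 5.32 CPM at day 0, 4.00 to 5.01 at day 1 and 4.14 to 4.48 at day 12, and the 3 groups overlapped. Its log2 fold change was -0.09 (95% interval -0.26 to 0.08, adjusted p 0.344) at day 1, then -0.17 (95% interval -0.34 to 0.00041, adjusted p 0.0649) at day 12, the latter turning to 0.03 under total counts. Changes over the 1.5-fold limit lie outside both intervals. Bmp4 was 1.30 to 1.71, 0.718 to 1.25 and 0.962 to 1.61 CPM. Its log2 fold change was -0.51 at day 1 (95% interval -0.87 to -0.15, adjusted p 0.0122), just under the fold change limit, and the day 0 and day 1 libraries did not overlap. It passed the limit when day 1 replicate 5 was left out (-0.60), among the 11 libraries with the lower numbers (-0.69) and with the reference genes (-0.60). At day 12 it was -0.33 (95% interval -0.68 to 0.03, adjusted p 0.0886).

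The BMP antagonists went in opposite directions. Grem1, a cystine knot protein that binds BMP2 and BMP4, was 207, 158, 192, 185 and 234 CPM at day 0, 260, 264, 238, 279 and 270 CPM at day 1, and 341, 345, 308, 274 and 360 CPM at day 12. All day 1 libraries lay above the day 0 libraries, while the day 12 and day 1 libraries overlapped through day 12 replicate 4. The log2 fold change was 0.43 ± 0.07 (SE) at day 1 (adjusted p 1.86e-05), under the fold change limit, and 0.74 ± 0.07 at day 12 (adjusted p 2.97e-09), where the gene was called higher. In all 3 groups the libraries with the higher library numbers (1, 2 and 1 of them) had the highest Grem1 levels of the group, and within the 11 other libraries the log2 fold change was 0.45 at day 1 and 0.77 at day 12. Day 12 exceeded day 1 by 0.31 on the log2 scale (adjusted p 0.0007), under the limit. Grem1 lies on chromosome 2 from 113746164 to 113758646 (GRCm38, minus strand) and shares no exon base with another gene.

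Nog fell at both exposures. It was 2.24, 2.46, 2.06, 2.47 and 2.51 CPM at day 0, 1.34, 1.57, 1.54, 1.85 and 1.02 CPM at day 1, and 1.23, 0.984, 0.911, 0.584 and 1.03 CPM at day 12. The day 0 libraries lay above all others, and the day 1 and day 12 libraries overlapped. The log2 fold change was -0.69 ± 0.16 (SE) at day 1 (adjusted p 0.000535), and -1.29 ± 0.17 (adjusted p 1.85e-07) at day 12. The day 1 call was lost without day 1 replicate 5 (-0.57). At day 12 against day 1 the log2 fold change was -0.60 ± 0.17 (adjusted p 0.00369), close to the fold change limit, and this call was lost without day 1 replicate 2 (-0.58), 3 (-0.58) or 4 (-0.51), without day 12 replicate 3 (-0.58) or 4 (-0.48), under total counts (-0.43) and with the reference genes (-0.45). Nog is a gene of a single exon on chromosome 11 from 89300638 to 89302332 (GRCm38, minus strand).

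**Figure D3:**
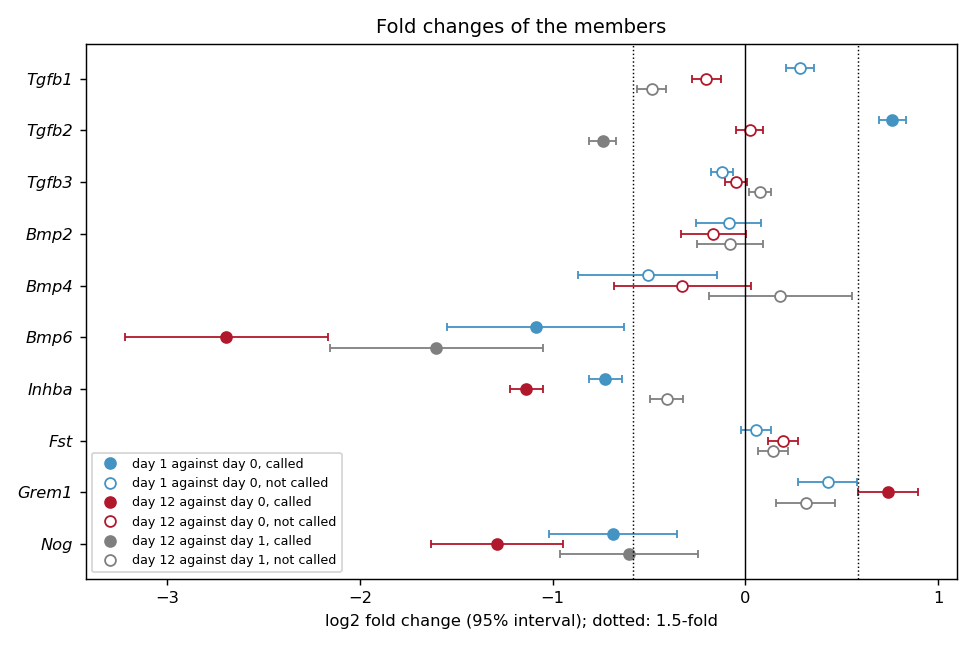
Log2 fold changes of the 10 genes (horizontal axis) with 95% intervals in the 3 comparisons. Filled points were called and open points were not, and dotted lines mark the 1.5-fold limit. Bmp6 lies farthest to the left (-1.09 and -2.69 against day 0), and Tgfb2 was called at day 1 (0.76) and is near 0 at day 12 against day 0 (0.02, or 0.22 under total counts).

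To compare genes with each other, levels were set per length of exon, as reads per kilobase of merged exons relative to the scaled library size (RPKM). At day 0 the order from the highest level was Grem1 (47.0 ± 6.72, SD, n = 5), Tgfb2 (34.4 ± 1.58), Tgfb3 (22.5 ± 0.331), Fst (17.4 ± 0.483), Inhba (16.1 ± 1.2), Tgfb1 (9.72 ± 0.505), Nog (1.39 ± 0.113), Bmp2 (1.36 ± 0.119), Bmp4 (0.652 ± 0.0766) and Bmp6 (0.306 ± 0.0777). Fst and Inhba overlapped in range, as did Nog and Bmp2, and the other neighbours did not. A gap of 7.015-fold separated Tgfb1 from Nog, or 13.7-fold with the longest transcript as the length, where Inhba was the next above Nog at 11.6-fold. Bmp2, Bmp4, Bmp6 and Nog thus stood well below the TGF-beta and activin genes and below Grem1. At day 1 Grem1 (63.2 ± 3.70) and Tgfb2 (58.3 ± 1.73) overlapped at the top, and Inhba (9.70 ± 0.371) came below Tgfb1 (11.8 ± 0.317). At day 12 Grem1 (78.5 ± 8.29) stood 2.25-fold above Tgfb2 (34.9 ± 1.46), Tgfb3 and Fst overlapped, and Nog (0.560 ± 0.139) overlapped with Bmp4 (0.523 ± 0.122). Bmp6 was last in each group, at 0.0476 ± 0.0121 RPKM at day 12. With the longest transcript as the length, 6 of the 10 genes kept their place at day 0, and at day 1 Tgfb2 came before Grem1.

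**Figure D4:**
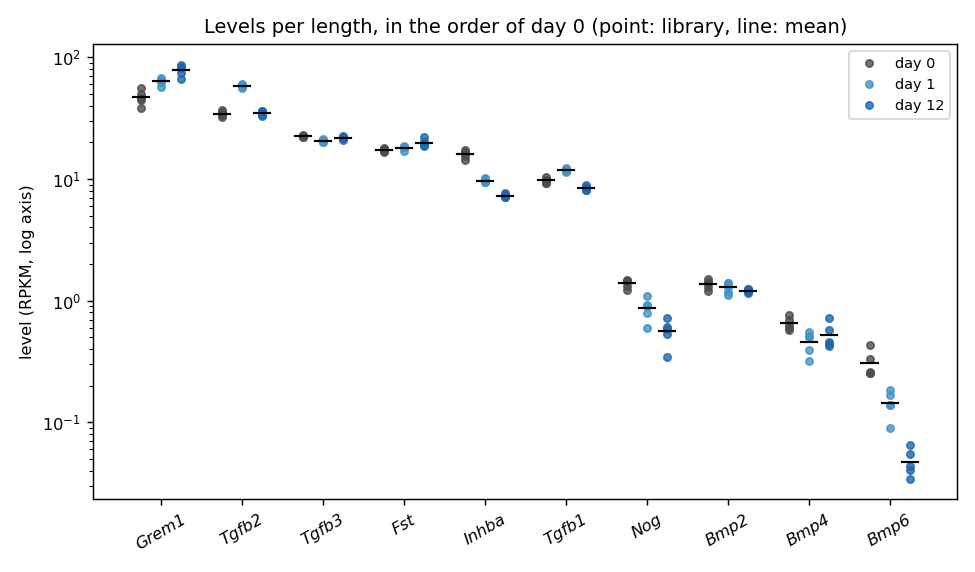
Level per length (RPKM, log axis) of each gene in each library by group, in the order of the day 0 means. Points are libraries and lines are means of 5 libraries. Levels run from 47.0 RPKM for Grem1 to 0.306 for Bmp6 at day 0, with a gap between Tgfb1 (9.72) and Nog (1.39).

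The make-up of the ligand pool was read from the same values. Summed over Tgfb1, Tgfb2 and Tgfb3, the level was 66.5 ± 1.78 RPKM (SD, n = 5) at day 0, 90.7 ± 1.55 at day 1 and 65.1 ± 1.54 at day 12. Tgfb2 made up 51.6% ± 1.13 of it at day 0, 64.2% ± 0.939 at day 1 and 53.6% ± 1.30 at day 12. The day 1 libraries (63.1% to 65.5%) were apart from all others (50.5% to 55.0%). Bmp2, Bmp4 and Bmp6 together came to 2.32 ± 0.130, 1.89 ± 0.0683 and 1.78 ± 0.135 RPKM. The ratio of Grem1 to their sum was 20.3 ± 2.99 at day 0, 33.6 ± 1.597 at day 1 and 44.4 ± 6.41 at day 12, with 17.3 to 24.9 in the day 0 libraries, 30.8 to 34.7 at day 1 and 33.8 to 49.6 at day 12. The BMP sum covers members alone and leaves out Bmp5, at 7.6, 10.4 and 9.5 CPM on average at days 0, 1 and 12. By edgeR, Bmp5 had log2 fold changes of 0.44 at day 1 and 0.32 at day 12 (adjusted p 2.32e-05 and 0.000763), under the fold change limit. Bmp8a, also left out, fell at both (-2.12 and -2.64). How BMP ligand RNA as a whole changed was not tested. The sums and ratios above describe RNA levels and carry no test.

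The other genes of the pathway were taken from 7 lists by role, which hold 105 genes, of which 104 were in the table and 92 were tested. At day 1, 9 of them were called (9.78%, against 21.1% of all genes), 2 upward and 7 downward. At day 12 it was 25 (27.2%, against 29.2%), 3 upward and 22 downward. Under total counts the day 12 calls were 11 upward and 18 downward. The share called was below that of all genes at day 1 and near it at day 12. Their median log2 fold change was -0.06 at day 1 and -0.20 at day 12, beside -0.0088 and 0.01 for all genes.

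Of 14 other ligands tested, 1 rose and 5 fell at day 1, while 1 rose and 7 fell at day 12. Among ligands averaging 1 CPM or more, 1 rose and 2 fell at day 1, and 1 rose and 3 fell at day 12. Inha, the inhibin alpha chain that turns activin subunits into inhibin, was 3.295 CPM on average at day 0 and rose at day 1 (log2 fold change 1.49, adjusted p 1.95e-13), and was lower at day 12 than at day 1 (-1.03). Inhbb, the activin beta B chain, went from 162 CPM to 98.3 and 86.7 CPM, with log2 fold changes of -0.72 (adjusted p 4.64e-16) and -0.90 (3.04e-18), so Inhba and Inhbb both fell. Gdf5, a ligand of joint and cartilage development, fell at both (log2 -0.88, then -1.91). At day 12 the stress cytokine gene Gdf15 fell (-2.42, from 8.42 to 1.58 CPM), and Gdf6, a relative of Gdf5, rose (1.82, from 1.64 to 5.82 CPM). Bmp8a, Gdf7 and Gdf9, with means under 1 CPM and named after their values were seen, fell at day 1 (-2.12, -1.004 and -1.24).

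Of 12 other extracellular antagonists tested, 1 fell at day 1 and 4 at day 12, and 0 rose. Fstl3, a follistatin relative that also binds activin, fell from 38.05 CPM to 16.3 at day 1 (-1.22, adjusted p 2.49e-14), and 15.6 CPM was left at day 12 (-1.29, adjusted p 4.92e-15). Fst, in contrast, was not called. Among those that fell at day 12 were also Chrdl1 (-0.62), a chordin relative that binds BMPs, and the proteoglycan gene Bgn (-0.90).

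Latency and activation genes (12 tested) had 0 calls at day 1. At day 12 Thbs1, whose product can activate latent TGF-beta, rose by 0.75 on the log2 scale to 6967 CPM, and Ltbp2, a fibrillin-binding member of the latent TGF-beta binding protein family, fell (log2 -0.95). Receptors and co-receptors (16 tested) had 0 calls at day 1 and 1 gene in each direction at day 12, Bmpr1b (1.45) and Acvr2b (-0.83), both under 1 CPM on average and named after their values were seen. Acvrl1, the type I receptor ALK1, was lower at day 12 than at day 1 (-0.59, adjusted p 5.20e-16), close to the limit. SMADs and their intracellular regulators (15 tested) had 0 calls at day 1 and 2 lower at day 12, the inhibitory Smad7 (-1.14, from 28.2 to 12.8 CPM) and Smad9 (-0.89). At day 12 the receptor and SMAD lists thus had 12.5% and 13.3% called, against 29.2% of all genes. Under total counts the day 12 calls were 2 higher and 1 lower among receptors, and 2 higher and 2 lower among SMAD genes. The list medians of the log2 fold change at day 12 were -0.0082 and -0.03. Changes under the limit went both ways, such as Tgfbr1 (0.47) and Acvrl1 (-0.44), or Smad3 (0.51) and Skil (-0.47).

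Among 12 TGF-beta target genes, Tgfbi alone was called at day 1, higher by 0.81 on the log2 scale (from 18.6 to 32.5 CPM). At day 12, 0 rose and 4 fell, among them the metalloproteinase inhibitor gene Timp1 (-0.75), Postn (-0.73) and the cell cycle inhibitor gene Cdkn2b (-0.73). Under total counts 1 of the list fell at day 12. The list median was -0.06 at day 1 and -0.31 at day 12. Of 11 BMP target genes, 0 rose, 1 fell at day 1 and 3 fell at day 12. Atoh8 fell at day 12 (-1.04, from 77.0 to 37.3 CPM), Hes1, also known as a Notch target, fell at both days (-0.64 and -0.93), Hey1, under 1 CPM and named after its value was seen, fell at day 12 (-1.12), and Id1 was lower at day 12 than at day 1 (-0.64). The list median was -0.21 and -0.38. Many of these genes have other known inputs, and Gdf5, Postn and Bgn are also expressed in cartilage or fibroblasts, whose markers are given above.

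**Figure D5:**
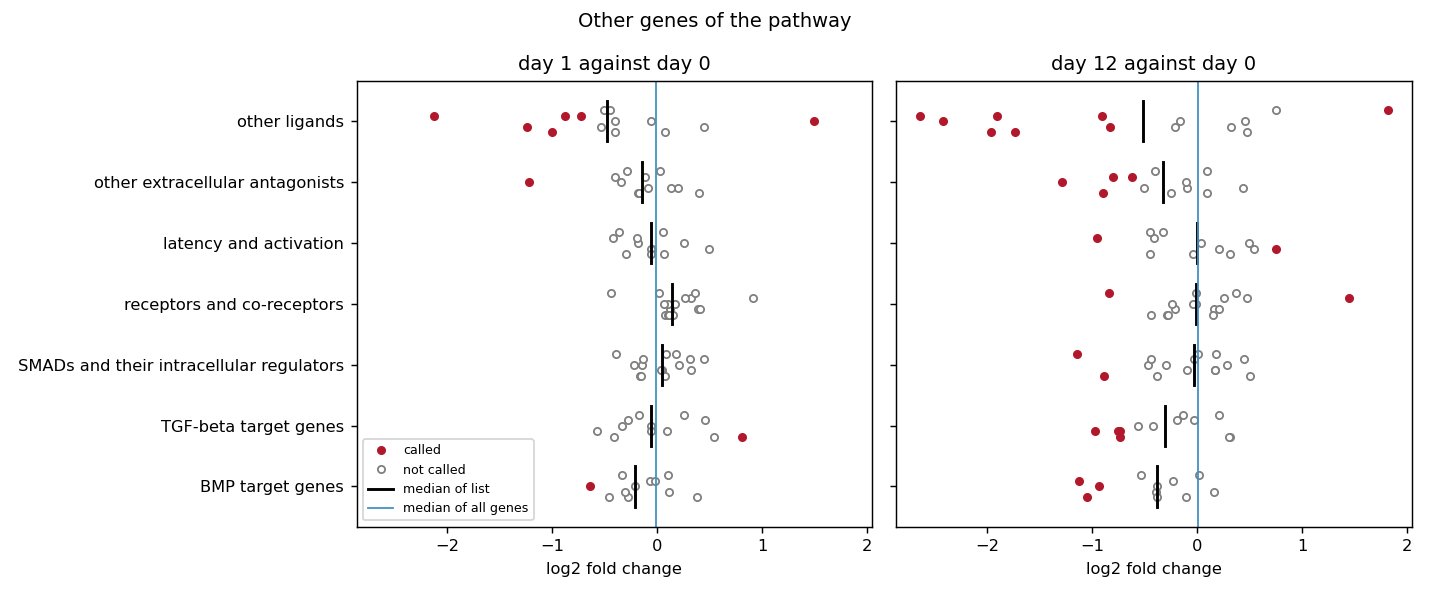
Log2 fold changes at day 1 and day 12 against day 0 (horizontal axes) of the 92 other pathway genes tested, by list. Filled points were called, black bars are list medians and the blue line is the median of all genes. Called points on the left are 7 of 9 at day 1 and 22 of 25 at day 12 (18 of 29 under total counts), beside 63.5% and 55.6% lower among all called genes (35.9% at day 12 under total counts).

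The genes whose pattern was most like that of a called member were found by the root mean square difference of log2 CPM, each centred on its mean over the 15 libraries, among 12131 other genes that averaged 1 CPM or more. Nearest to Tgfb2 were Scara3 (0.0545), Mpzl1 (0.0615) and H3f3b (0.0778). For Inhba they were 4632428N05Rik (0.0726), G0s2 (0.0751), whose product inhibits the lipase ATGL, and the hexokinase gene Hk2 (0.0774). For Grem1 they were Pgs1 (0.114), Pbx3 (0.114) and Ier2 (0.117), and for Nog Adamts9 (0.22), Sytl4 (0.228) and Ddo (0.232). The likeness was thus closest for Tgfb2 and Inhba, less close for Grem1 and loosest for Nog, whose counts are low (41 to 282 per library). Grem1 was more abundant than Inhba in each group, and the cause of these differences in likeness was not tested. Bmp6 had a mean under 1 CPM and was left out of this search.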

How the data were processed

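Total RNA of 15 samples (5 each at 0, 1 and 12 days at 31°C) was sequenced. The authors aligned reads to mm10 with TopHat2 2.0.13 and Bowtie2 2.2.1 and counted them per gene with HTSeq. The deposited values used here are those raw counts. Strand setting and gene models of the counting are not given in the sources used here, so reads of overlapping genes cannot be told apart. The authors' deposited regularized log values and DESeq2 comparison tables (fold changes and p-values) were not used.

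Libraries were grouped and numbered as the labels give them. Genes were filtered with filterByExpr at its minimum count of 10, which left 14293 of 18804, and libraries were scaled by TMM (factors 0.9459 to 1.094). All 15 libraries entered one edgeR 4.0.16 quasi-likelihood fit in R 4.3.3 with no covariate, with Benjamini-Hochberg adjustment over all genes tested. A call needed an adjusted p below 0.05 together with a fold change above 1.5. Standard errors are the log2 fold change over the square root of F. A count of 3, or 0.0238 to 0.0428 CPM by library, was taken as the floor, which covers counting error only. The lowest chi-square per degree of freedom between 2 libraries of a group was 5.7, so no library was a copy of another. The fit was tested on simulated data.

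Exon lengths, coordinates and overlaps came from the GENCODE annotation (GRCm38, the same assembly as mm10), with matching by symbol, and 6 of 10 members had a RefSeq promoter entry. Called genes of each pathway list with a mean of at least 1 CPM were named, at most 4 per comparison, with the 3 genes most like each called member of at least 1 CPM. Some called genes of these lists are not reported here. Members, lists and tests were chosen with earlier results of these data known. Library numbers in the labels form 2 ranges, with 11 libraries in the lower range, which were also fitted alone. The 4 in the higher range (day 0 had 1, day 1 had 2, day 12 had 1) were not. Alternatives were DESeq2 1.42.0, other scalings and filters, no fold change limit, each library left out, library series, a replicate block and fits of 2 groups.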

Additional observations from a re-analysis of the deposited data

Results flagged for a closer look

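Fst in day 1 replicate 5 was 77.2 CPM, apart from the other 4 day 1 libraries at 83.4 to 84.8 CPM, and it was the only value far from its group among 30 groups of 5 values. Chance alone flags about 1 in 20 such groups.

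The effects at the exposures differed, by the direct edgeR test of day 12 against day 1, for Tgfb2 (log2 -0.74), Bmp6 (-1.603) and Nog (-0.60). Tgfb2 was high at day 1 only, whereas Bmp6 and Nog were lower at day 12 than at day 1. The Nog difference lay near the fold change limit.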

How the results depend on the processing

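Over 26 alternatives, 748 of 777 refitted fold changes of members kept their direction and their side of the call, 14 gained a call (11 of them with no fold change limit), 9 lost one and 6 changed sign. No call of Tgfb2 at day 1, of Grem1 at day 12, or of Inhba and Bmp6 against day 0 was lost in any alternative that tested them, though Bmp6 was not tested where genes averaging below 1 CPM were removed. Calls were lost for Tgfb2 at day 12 against day 1 under total counts (-0.57) and for Nog as given in the report. Signs changed, all for members not called, under total counts for Tgfb3 (0.15) and Bmp2 (0.026) at day 12 and Bmp2 at day 12 against day 1 (0.091), and with the reference genes for Fst at day 1 (-0.044), Tgfb3 at day 12 (0.0083) and Bmp2 at day 12 against day 1 (0.074). With no fold change limit, 3 members passed upward and 5 downward at day 1, and 2 upward with 4 downward at day 12. At day 12 against day 1 it was 3 upward with 5 downward. All genes called without that limit became 5049 higher and 5177 lower at day 1, and 5608 and 5342 at day 12. At day 12 against day 1 they were 4908 and 4690. Total counts gave 2982 genes higher at day 12, where the median of all genes moved to 0.21 and 35.9% of the called genes were lower (55.6% with TMM), and 1 member lower at day 12 against day 1, with a median of 0.18 and 27.3% lower (44.7% with TMM). With the reference genes (Hprt, Tbp and Ppia) the medians were -0.11, 0.07 and 0.16, and 75.8%, 49.6% and 29% of the calls were lower. With the longest transcript as length, 6 of 10 members kept their place in the day 0 order. Leaving out 1 library at a time gave 2 to 3 members lower at day 12 against day 1 and changed no other count of members, since without day 1 replicate 5 Nog was lost and Bmp4 gained at day 1. Replicate numbers were not taken to pair the libraries, since the labels tie them to no shared source and deviations of same-numbered libraries correlated by only -0.0255 to 0.0436 over genes. The best partner had the same number in 17 of 30 cases, where equal shares would give 6, so a weak link by number may exist. With the replicate block, the counts of members were 1 upward with 3 downward at day 1, 1 with 3 at day 12 and 0 with 3 at day 12 against day 1, as without it. Depth limits Bmp6, with 13 to 20 counts per library at day 12.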
